A study of Mus musculus with 15 samples.

Results

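Mitosis and cytokinesis genes were followed in the myocardium of mice given doxorubicin, an anthracycline cancer drug that is toxic to the heart, with or without a vector for VEGF-B, a growth factor of the vascular endothelial family. The set holds 34 genes, chosen by name. All probes that the platform annotation assigns to one of them were taken, which gave 63 of the 45281 probes on the array, from 32 genes, of which 20 had a probe bright enough to test. Ccnb1 and Mki67 had no probe under these names and were not analysed here. RNA came from the hearts of male C57Bl/6J mice aged 10 weeks, with 15 arrays in 3 groups of 5. The PBS group was injected with PBS, the DOX group with doxorubicin, and the VEGFB_DOX group received AAV9-VEGF-B, an adeno-associated vector of serotype 9, 7 days before doxorubicin. Hearts were collected 20 hours after doxorubicin or PBS. No group received an empty vector or the vector without doxorubicin, so VEGF-B and the vector itself cannot be told apart here. The promoter that drives the vector is not given in the sources used here.

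Mitosis begins when cyclin B and cyclin A activate the kinase CDK1, which sets off chromosome condensation and building of the spindle. The spindle checkpoint holds cells until each kinetochore is attached, then the anaphase-promoting complex with its activator CDC20 lets sister chromatids part, and the central spindle and a contractile ring split the cell. These genes are transcribed mainly in G2 and mitosis, so bulk levels of their transcripts are widely used as a readout of dividing cells. Adult cardiomyocytes rarely divide, and most cycling cells of the adult heart are endothelial cells, fibroblasts and leukocytes.

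Values are the authors' normalized log2 intensities, and each array had a median of 6.92. Probes above 6.92, the upper limit of the background estimated from these values, on at least 5 of 15 arrays were tested, 24128 in all. No background subtraction is visible in the values, so for dim probes a difference understates the change in transcript. Cardiomyocyte markers were among the brightest readings, with Actc1 (cardiac actin) at 14.57 ± 0.12 (SD, n = 5) and Mb (myoglobin) at 14.45 ± 0.13 in PBS. Vegfb, the mouse gene for VEGF-B, had 1 probe, which was not higher in VEGFB_DOX. It read 12.95 ± 0.07 in PBS, 12.98 ± 0.09 in DOX and 12.76 ± 0.07 in VEGFB_DOX, a fall by 0.22 ± 0.06 (SE) against DOX (limma, adjusted p = 0.0193). It is not known here if the vector's sequence includes the target of that probe. The 4 arrays PBS 4, PBS 5, DOX 5 and VEGFB_DOX 5 stood apart from the other 11 on the second principal component, and no label names a batch for them. The member counts are also given without them.

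The mitosis and cytokinesis genes rose together in hearts given the vector before doxorubicin, and doxorubicin alone changed none of them past the threshold. In VEGFB_DOX against DOX, with every probe tested, 27 of the 63 probes were higher and 0 were lower (limma, adjusted p under 0.05), while 3.09% of all 45281 probes were called higher and 1.12% lower. These calls fell on 18 of the 32 genes. In VEGFB_DOX against PBS the count was also 27 of 63, from 18 genes, with 3.29% of all probes called higher and 1.87% lower, and 0 of the 63 were lower. In DOX against PBS, 0 of 63 were called in either direction, with 0.115% of all probes called higher and 0.0508% lower, and 3 of the 63 had an unadjusted p under 0.05, as did 7.80% of all probes. Over the 63 probes the median log2 difference was -0.01 in DOX against PBS, 0.12 in VEGFB_DOX against DOX and 0.08 in VEGFB_DOX against PBS, and over all probes each of the 3 medians lay within 0.01 of 0. Because this is whole tissue, a larger number of dividing cells and more of each transcript per cell cannot be told apart.

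The filter on dim probes kept 31 of the 63, from 20 genes. Among them 27 rose and 0 fell against DOX, where 6.64% of the tested probes were called higher and 3.32% lower. Against PBS 26 rose and 0 fell, where 6.97% were higher and 4.92% lower. Of the 31, 10 passed the filter only through the VEGFB_DOX arrays, so they had to be high there. The other 21 would have passed on the PBS and DOX arrays alone, and 17 of them rose against DOX and 16 against PBS. In 22 of the 31 no VEGFB_DOX array overlapped a DOX array, against 5.33% of all tested probes, and in 22 none overlapped a PBS array, against 5.61%. Without the 4 arrays that stood apart, 26 of the 31 rose against DOX, where 6.59% of all tested probes did, and 23 against PBS, where 5.55% did. The non-overlap counts and these last counts are over all 31, with the 10 probes that had to be high in VEGFB_DOX. They are thus partly set by the filter. All further differences come from the fit over the 24128 tested probes, and each gene is represented by its brightest tested probe unless another is named.

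**Figure D1:**
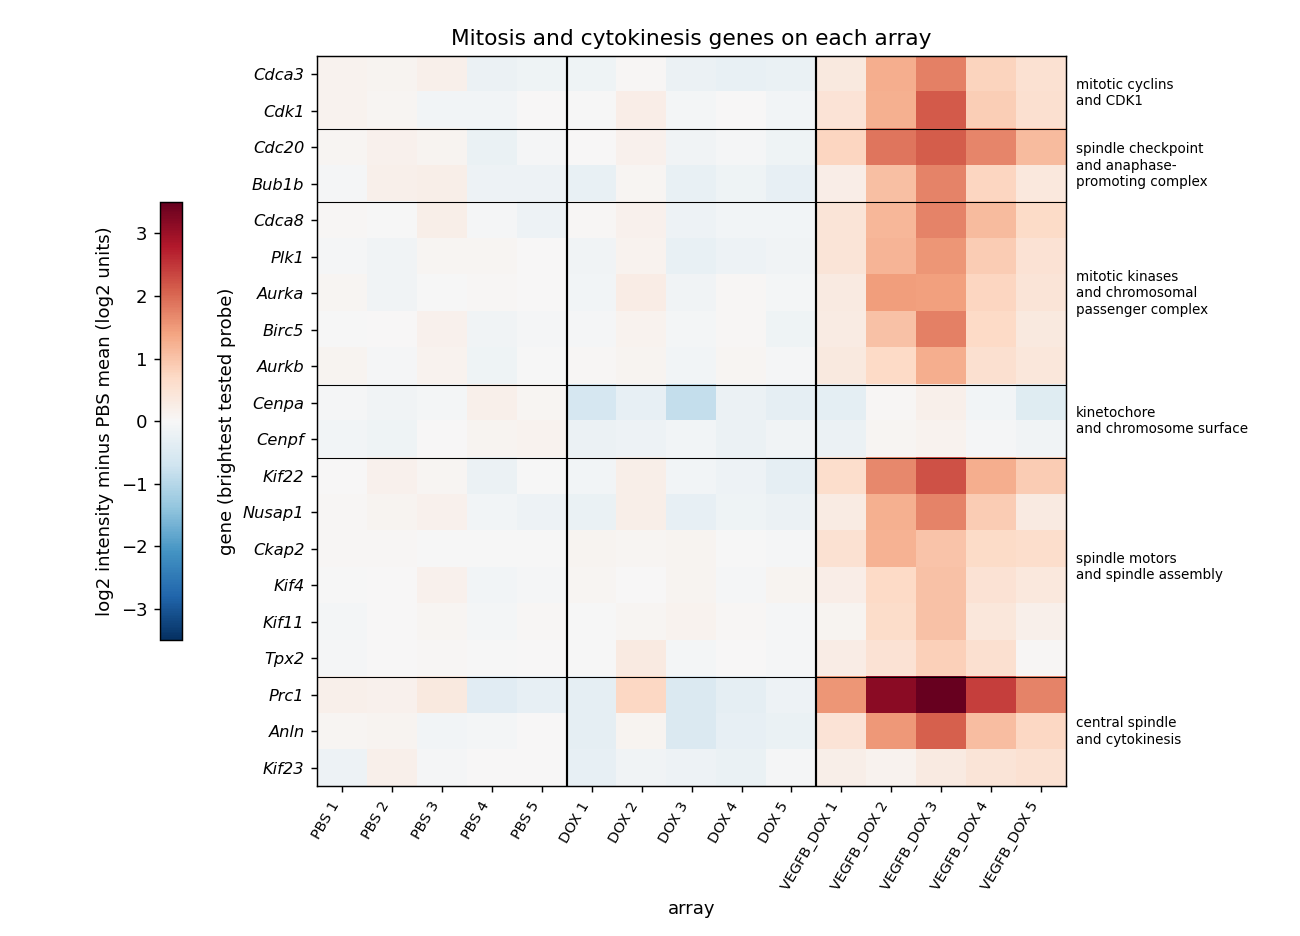
Each row is 1 of the 20 genes with a tested probe, grouped by role, each column is 1 array, and colour gives the log2 intensity minus the mean of the 5 PBS arrays (log2 units, red higher, blue lower). The VEGFB_DOX columns are red in nearly every row, darkest on VEGFB_DOX 3 and VEGFB_DOX 2, while Cenpa and Cenpf stay near or below the PBS mean. Of the 20 genes, 6 passed the filter only through the VEGFB_DOX arrays, so they had to be high there.

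Genes of this kind share promoter elements in textbook accounts of cell cycle transcription. The cell cycle genes homology region (CHR) binds MuvB complexes, which repress with p130 in resting cells and activate with B-MYB and FOXM1 in G2, and CCAAT boxes bind NF-Y. RefSeq promoter windows (mouse build GRCm38.p6, 250 bases before to 50 after the annotated start) were available for 30 of the 34 genes and searched on both strands for the CHR letters TTTGAA or TTCGAA and for CCAAT. The windows of Aurkb, Ccna2, Kif20a and Tpx2 were not used here. A CHR match lay in 24 of the 30 windows (80.0%), against 5254 of the 27025 windows of the table (19.4%). A CCAAT match lay in 27 (90.0%), against 37.9% of all windows, and both motifs in 23 (76.7%), against 7.7%. At least 2 CCAAT matches lay in 19 windows (63.3%), against 12.2%. The 18 genes with both a tested probe and a window held a CHR match in 16 cases, and the 12 others in 8. Among the genes that rose, Birc5 and Nusap1 had neither motif in this window. Matches describe letters only and do not show that a factor binds there.

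The 5 windows below belong to the genes with the largest rises against DOX whose window held a CHR match, and are shown so that the placing of the motifs can be compared. Capitals mark CHR and CCAAT matches on either strand, so TTCAAA and ATTGG are the same motifs on the other strand. Positions count from the annotated start as 1, with bases before it negative. The window of Prc1 is chr7:80294201-80294500 on the plus strand and has its CHR match at -5 and its CCAAT match at -37. That of Cdc20 is chr4:118437294-118437593 on the minus strand, with a CHR match at -18 between CCAAT matches at -53 and -8. That of Kif22 is chr7:127042371-127042670 on the minus strand, with CHR matches at -215 and -17. That of Anln is chr9:22389157-22389456 on the minus strand, with CHR matches just after the start at 22 and 29 and no CCAAT. That of Cdca3 is chr6:124829926-124830225 on the plus strand, with a CHR match at 31 and CCAAT matches at -104, -71 and -4.
Prc1: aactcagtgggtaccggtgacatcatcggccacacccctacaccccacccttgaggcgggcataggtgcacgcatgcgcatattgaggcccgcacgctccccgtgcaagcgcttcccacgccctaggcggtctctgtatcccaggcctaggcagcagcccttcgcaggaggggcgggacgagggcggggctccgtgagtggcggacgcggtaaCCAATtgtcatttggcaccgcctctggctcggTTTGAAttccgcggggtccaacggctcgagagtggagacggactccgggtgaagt
Cdc20: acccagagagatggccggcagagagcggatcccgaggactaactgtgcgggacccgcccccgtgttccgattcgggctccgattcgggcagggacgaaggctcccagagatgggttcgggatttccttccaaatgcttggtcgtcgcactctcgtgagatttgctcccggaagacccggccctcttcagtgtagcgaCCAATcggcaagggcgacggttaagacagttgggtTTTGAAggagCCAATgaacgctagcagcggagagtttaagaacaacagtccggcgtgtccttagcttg
Kif22: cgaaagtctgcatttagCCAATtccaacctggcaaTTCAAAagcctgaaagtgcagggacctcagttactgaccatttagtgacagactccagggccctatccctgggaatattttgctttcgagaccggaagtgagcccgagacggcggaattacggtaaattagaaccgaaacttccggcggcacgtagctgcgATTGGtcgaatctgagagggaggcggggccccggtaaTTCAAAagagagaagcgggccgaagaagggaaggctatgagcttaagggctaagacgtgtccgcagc
Anln: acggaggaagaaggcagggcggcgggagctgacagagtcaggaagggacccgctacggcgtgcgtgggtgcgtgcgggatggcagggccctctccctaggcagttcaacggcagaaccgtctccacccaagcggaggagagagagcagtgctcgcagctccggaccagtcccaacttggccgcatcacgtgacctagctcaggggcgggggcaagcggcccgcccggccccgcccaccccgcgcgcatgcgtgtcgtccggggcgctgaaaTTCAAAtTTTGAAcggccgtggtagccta
Cdca3: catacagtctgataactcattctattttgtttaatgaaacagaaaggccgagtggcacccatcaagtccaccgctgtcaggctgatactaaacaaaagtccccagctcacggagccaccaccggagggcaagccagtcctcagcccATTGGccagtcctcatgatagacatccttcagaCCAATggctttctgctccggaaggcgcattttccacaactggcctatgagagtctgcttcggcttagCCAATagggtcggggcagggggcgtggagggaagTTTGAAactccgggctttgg
Prc1, Cdc20 and Cdca3 thus carry the TTTGAA form on the strand shown, Kif22 carries its complement at both places, and Anln carries 1 of each.

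Of the 6 genes of the cyclin and CDK1 group, which drives entry into mitosis, Cdk1 and Cdca3 had a tested probe and both rose against DOX and PBS. Cdk1 passed the filter only through the VEGFB_DOX arrays, so its being tested depended on the rise, while Cdca3 passed on the PBS and DOX arrays alone. Cdk1 encodes the kinase that starts mitosis, and read 7.01, 6.96, 6.81, 6.81 and 6.90 on PBS arrays 1 to 5, 6.88, 7.12, 6.84, 6.91 and 6.81 on the DOX arrays, and 7.37, 8.13, 9.04, 7.76 and 7.45 on the VEGFB_DOX arrays. The 2 control groups sat at background level and every VEGFB_DOX array lay above all 10 of their readings. The difference against DOX was 1.04 ± 0.21 (SE), or 2.05 times (limma, adjusted p = 0.00316), and against PBS 1.05 ± 0.21 (adjusted p = 0.00269). Cdca3, whose protein promotes degradation of the CDK1 inhibitor WEE1, read 7.35, 7.33, 7.41, 7.03 and 7.08 in PBS, 7.09, 7.28, 7.04, 6.98 and 7.02 in DOX, and 7.58, 8.50, 9.0, 8.01 and 7.77 in VEGFB_DOX. The VEGFB_DOX arrays again lay above all others, while PBS and DOX overlapped. Cdca3 rose by 1.09 ± 0.19 against DOX (adjusted p = 0.000759), and the rise was 0.93 ± 0.19 against PBS (adjusted p = 0.00286). A second Cdca3 probe, not well above background on any PBS array, rose by 0.45 ± 0.08 against DOX (adjusted p = 0.00153) and was at least 1.27-fold higher than in PBS. Like Cdk1, that probe passed the filter only through the VEGFB_DOX arrays.

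The readings that would complete this group were not informative. The probes of Ccna2 (cyclin A2), Ccnb2 (cyclin B2) and Cks2 (a small CDK-binding subunit) reached at most 6.85, 6.92 and 6.91 on any array, at or below the background limit. In all, 12 of the 32 genes failed the filter on all of their 19 probes. Of these, 11 were above the limit on no array, and Ttk reached it on at most 2 arrays of any probe, with a highest reading of 6.99. At this signal a fall would not have been detectable, and a rise only if it lifted a probe above background, as for Cdk1. No such rise was read on these probes. Smaller changes would have been missed, so nothing can be said of the transcript levels.

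Both tested genes of the spindle checkpoint and the anaphase-promoting complex, Cdc20 and Bub1b, rose as well, and both passed the filter without the VEGFB_DOX arrays. Cdc20, the activator that hands securin and cyclin B to the anaphase-promoting complex, read 7.29, 7.37, 7.32, 6.99 and 7.18 in PBS, 7.25, 7.38, 7.12, 7.20 and 7.07 in DOX, and 7.99, 9.11, 9.34, 8.93 and 8.33 in VEGFB_DOX. The lowest VEGFB_DOX reading was thus well above the highest of the other 10. The difference was 1.54 ± 0.18 against DOX, or 2.90 times (limma, adjusted p = 1.97e-05), and 1.51 ± 0.18 against PBS (adjusted p = 2.79e-05). Of its 3 other probes, ILMN_2612206 and ILMN_2867901 rose by 0.95 and 0.79 against DOX, while ILMN_2698767 read at most 7.11 on any array and differed by 0.10 ± 0.06 (adjusted p = 0.350). Bub1b, which encodes the checkpoint kinase BUBR1, read 7.25, 7.46, 7.50, 7.12 and 7.11 in PBS, 7.02, 7.37, 7.03, 7.13 and 6.99 in DOX, and 7.52, 8.34, 9.03, 8.04 and 7.66 in VEGFB_DOX. Its groups did not overlap, but VEGFB_DOX 1 exceeded the highest PBS array only narrowly. Bub1b rose by 1.01 ± 0.20 against DOX (adjusted p = 0.00244), and the rise was 0.83 ± 0.20 against PBS (adjusted p = 0.00939). Its dimmer probe ILMN_2985969 rose by 0.26 ± 0.08 against DOX (adjusted p = 0.0346), a call lost without any one of DOX 2, DOX 4, DOX 5, VEGFB_DOX 2, VEGFB_DOX 3 or VEGFB_DOX 5, and without the 4 arrays that stood apart. It differed by 0.21 ± 0.08 from PBS (adjusted p = 0.0866). Bub1 and Ttk, the 2 other checkpoint kinases of the group, and Ube2c, the ubiquitin-conjugating enzyme of the complex, did not pass the filter.

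**Figure D2:**
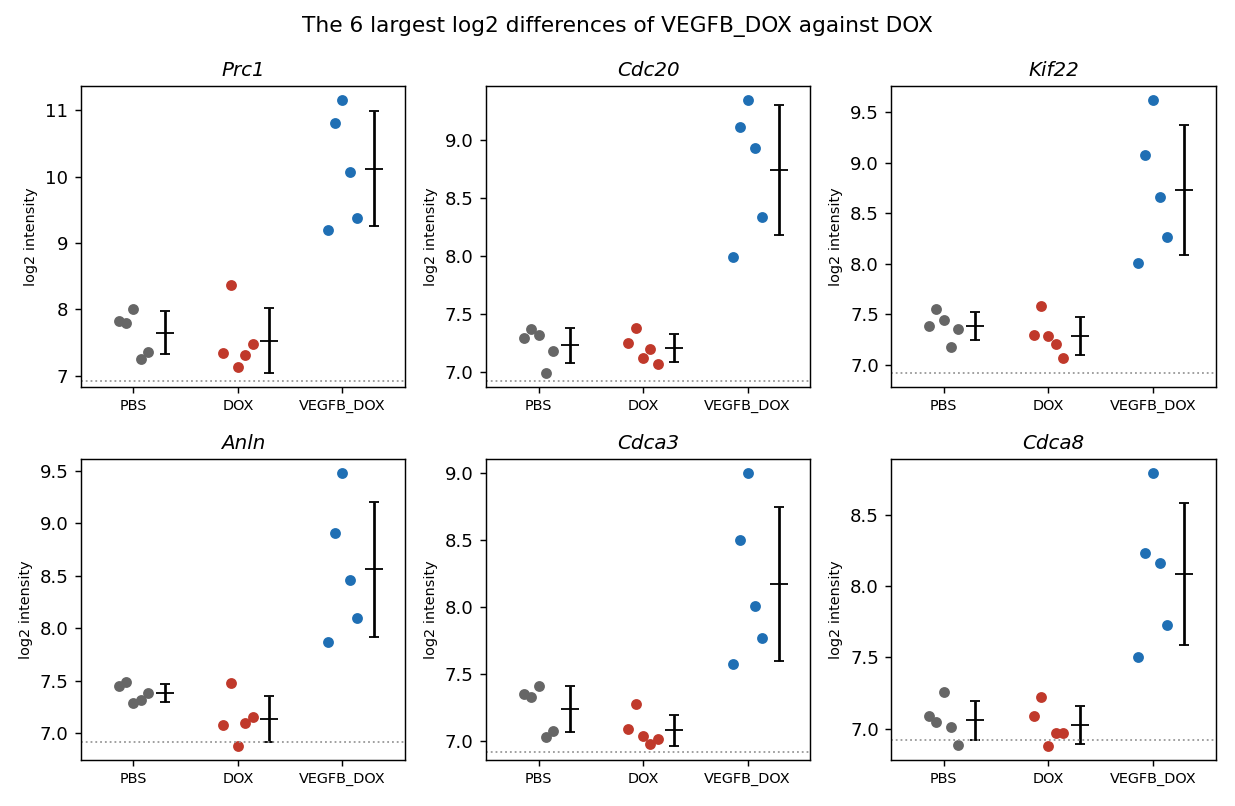
Each panel shows the log2 intensity of 1 gene (brightest tested probe) on each array, with points in replicate order within a group, a bar for mean ± SD (n = 5) and a dotted line at the background limit of 6.92. In all 6 panels the 5 VEGFB_DOX points lie above every PBS and DOX point, and the spread is widest in VEGFB_DOX.

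The mitotic kinases and the chromosomal passenger complex, which corrects wrong attachments of chromosomes to the spindle, had 5 genes with a tested probe. All 5 (Plk1, Aurka, Aurkb, Birc5 and Cdca8) rose in both comparisons, by 0.64 to 1.06 against DOX and by 0.66 to 1.02 against PBS, and of these Aurkb passed the filter only through the VEGFB_DOX arrays. Nek2, a kinase of the centrosome, was at background. Cdca8, the borealin subunit of the complex, read 7.09, 7.05, 7.26, 7.01 and 6.89 in PBS, 7.09, 7.22, 6.88, 6.97 and 6.97 in DOX, and 7.50, 8.23, 8.79, 8.16 and 7.73 in VEGFB_DOX. Every VEGFB_DOX array exceeded the other 10, and the rise against DOX was 1.06 ± 0.16 (limma, adjusted p = 0.000279). Plk1, the polo-like kinase that acts from mitotic entry to cytokinesis, read 7.11, 7.05, 7.23, 7.23 and 7.18 in PBS, 7.05, 7.29, 6.91, 6.98 and 7.04 in DOX, and 7.61, 8.34, 8.71, 8.06 and 7.67 in VEGFB_DOX. Its groups were apart too, with a rise of 1.02 ± 0.15 against DOX (adjusted p = 0.000185) and 0.92 ± 0.15 against PBS (adjusted p = 0.000557).

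Aurora A and survivin completed the readable part of that group. Aurka, the kinase of the spindle poles, read 7.13, 6.94, 7.05, 7.11 and 7.06 in PBS, 6.96, 7.31, 6.93, 7.11 and 6.99 in DOX, and 7.36, 8.51, 8.49, 7.80 and 7.52 in VEGFB_DOX. VEGFB_DOX 1 exceeded DOX 2 by little, and the mean rise was 0.88 ± 0.17 against either group (limma, adjusted p = 0.00258 against DOX and 0.00242 against PBS). Birc5, which encodes the passenger subunit survivin, read 7.03, 7.05, 7.20, 6.92 and 6.99 in PBS, 7.00, 7.17, 6.97, 7.09 and 6.90 in DOX, and 7.32, 8.06, 8.79, 7.73 and 7.38 in VEGFB_DOX. Its groups did not overlap, and it rose by 0.83 ± 0.19 against DOX (adjusted p = 0.00754). Both further Birc5 probes passed the filter only through the VEGFB_DOX arrays, so they had to be high there. As a description, ILMN_2681241 rose by 0.70 and ILMN_2603699 by 0.55 against DOX. The first of them was not well above background on any DOX array, and by that bound was at least 1.47-fold higher in VEGFB_DOX. Aurkb, the kinase subunit of the passenger complex, rose by 0.64 ± 0.12 against DOX (adjusted p = 0.00204) from 6.87 ± 0.07 (SD, n = 5) in DOX to 7.51 ± 0.38 in VEGFB_DOX, and was above background in DOX on only 2 of 5 arrays.

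Only 2 kinetochore genes, Cenpa and Cenpf, had a tested probe, and their brightest probes departed from this pattern. Cenpa, the histone H3 variant that marks centromeres, had the brightest probe of the set, ILMN_1236574, which read 11.84, 11.77, 11.81, 12.06 and 11.94 in PBS, 11.30, 11.59, 11.04, 11.68 and 11.57 in DOX, and 11.55, 11.92, 12.06, 11.79 and 11.46 in VEGFB_DOX. All 5 DOX arrays lay below all 5 PBS arrays, as did 0.97% of tested probes, but the difference of -0.45 ± 0.12 missed the threshold over all probes (limma, adjusted p = 0.137). It was called lower when DOX 2 and VEGFB_DOX 3 were left out together, where 1.33% of all tested probes were called lower, against 0.0995% with all arrays. VEGFB_DOX overlapped both groups, with differences of 0.32 ± 0.12 from DOX (adjusted p = 0.119) and -0.13 ± 0.12 from PBS (adjusted p = 0.597). The first of these differences passed the threshold without VEGFB_DOX 5, and also without the 4 arrays that stood apart. The other Cenpa probe lay near background, at 6.93 to 7.28 on all arrays, and differed by 0.04 ± 0.06 between VEGFB_DOX and DOX. Cenpf, a large coiled-coil protein of the kinetochore, read at most 7.28 on any array, near background, so a rise could have been missed. It differed by 0.12 ± 0.06 from DOX on its brighter probe (adjusted p = 0.268). Its dimmer probe, ILMN_2581479, rose by 0.15 ± 0.05 against DOX (adjusted p = 0.0412) with overlapping groups, and that call was lost in 17 of 24 alternative settings, among them without any one of DOX 1, DOX 3, DOX 4, DOX 5, PBS 1, PBS 4, VEGFB_DOX 2, VEGFB_DOX 3, VEGFB_DOX 4 or VEGFB_DOX 5. ILMN_2581479 passed the filter only through the VEGFB_DOX arrays, so it had to be high there. Cenpe, the kinetochore motor, was at background.

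Among genes for spindle motors and spindle assembly, Kif22 and Nusap1 passed the filter on the PBS and DOX arrays alone and both rose. Ckap2, Kif4, Kif11 and Tpx2 passed only through the VEGFB_DOX arrays, so they had to be high there, and their values are a description. Kif22, a kinesin that pushes chromosome arms towards the spindle equator, read 7.39, 7.55, 7.45, 7.18 and 7.36 in PBS, 7.30, 7.58, 7.29, 7.21 and 7.07 in DOX, and 8.01, 9.08, 9.62, 8.66 and 8.27 in VEGFB_DOX. All VEGFB_DOX arrays were above all others, and Kif22 rose 2.71 times against DOX, a log2 difference of 1.44 ± 0.21 (limma, adjusted p = 0.000150), and the rise was 1.34 ± 0.21 against PBS (adjusted p = 0.000326). Nusap1, which bundles spindle microtubules near chromosomes, read 7.14, 7.20, 7.25, 7.01 and 6.93 in PBS, 6.88, 7.31, 6.83, 6.95 and 6.90 in DOX, and 7.39, 8.35, 8.83, 7.99 and 7.43 in VEGFB_DOX. The groups did not overlap, although DOX 2 came close to VEGFB_DOX 1, and the rise was 1.02 ± 0.20 against DOX (adjusted p = 0.00232).

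The 4 dimmer genes of that group were near background in PBS and DOX. Ckap2, a spindle microtubule-associated protein, rose by 0.77 ± 0.09 against DOX (limma, adjusted p = 2.55e-05) with groups apart. It was not well above background on any PBS array and was at least 1.63-fold higher in VEGFB_DOX than there. Kif4, a chromosome-bound kinesin, rose by 0.52 ± 0.10 (adjusted p = 0.00262). Kif11, the kinesin that slides the spindle poles apart, rose by 0.42 ± 0.12 (adjusted p = 0.0291), a call lost without any one of DOX 1, DOX 4, DOX 5 or VEGFB_DOX 2, with only the 2 groups in the fit, and with a robust variance prior. Tpx2, the activator of Aurora A on the spindle, rose by 0.39 ± 0.10 (adjusted p = 0.0212), lost without any one of DOX 1, DOX 3, DOX 4, VEGFB_DOX 2 or VEGFB_DOX 4, and with only the 2 groups in the fit. Against PBS, where no Tpx2 reading was well above background, it was at least 1.21-fold higher. Hmmr, the spindle protein RHAMM, stayed at background.

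The central spindle and cytokinesis genes held the largest difference of the set. Prc1, the microtubule bundler that builds the central spindle, read 7.83, 7.80, 8.0, 7.25 and 7.36 in PBS, 7.34, 8.37, 7.13, 7.32 and 7.48 in DOX, and 9.19, 10.81, 11.15, 10.07 and 9.38 in VEGFB_DOX. DOX 2 was the highest of the 10 control readings, and the lowest VEGFB_DOX array was still above it. The rise was 2.59 ± 0.31 against DOX, or 6.03 times (limma, adjusted p = 2.27e-05), and 2.47 ± 0.31 against PBS, or 5.55 times (adjusted p = 4.50e-05). Anln, the actin-binding scaffold anillin of the contractile ring, read 7.45, 7.49, 7.29, 7.32 and 7.39 in PBS, 7.08, 7.48, 6.88, 7.10 and 7.16 in DOX, and 7.87, 8.91, 9.48, 8.46 and 8.10 in VEGFB_DOX. Every VEGFB_DOX array lay above the other 10, and Anln rose by 1.42 ± 0.21 against DOX (adjusted p = 0.000172), and the rise was 1.18 ± 0.21 against PBS (adjusted p = 0.00108).

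Kif23, the motor subunit of the centralspindlin complex, gave unlike results on its 3 tested probes. Its brightest, ILMN_1250752, lay at 7.95 to 8.42 in both control groups and rose by only 0.49 ± 0.09 against DOX (limma, adjusted p = 0.00112) and 0.32 ± 0.09 against PBS (adjusted p = 0.0213), with VEGFB_DOX and PBS overlapping. The call against PBS was lost without any one of PBS 1, VEGFB_DOX 4 or VEGFB_DOX 5, and without the 4 arrays that stood apart. The probe ILMN_1220121 read 7.70, 7.73, 7.91, 7.24 and 7.25 in PBS, 7.08, 7.97, 7.32, 7.15 and 7.06 in DOX, and 8.32, 9.52, 10.26, 9.13 and 8.28 in VEGFB_DOX. It rose by 1.79 ± 0.29 against DOX (adjusted p = 0.000471) with no overlap, and the last, ILMN_2923463, by 1.08 ± 0.19 (adjusted p = 0.000965). The 3 probes thus shared the direction and differed in size, and the array order of the brightest was not that of the other 2. Racgap1, the other centralspindlin subunit, Ect2, the exchange factor that starts the furrow, and Kif20a, a kinesin of the central spindle, were at background.

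**Figure D3:**
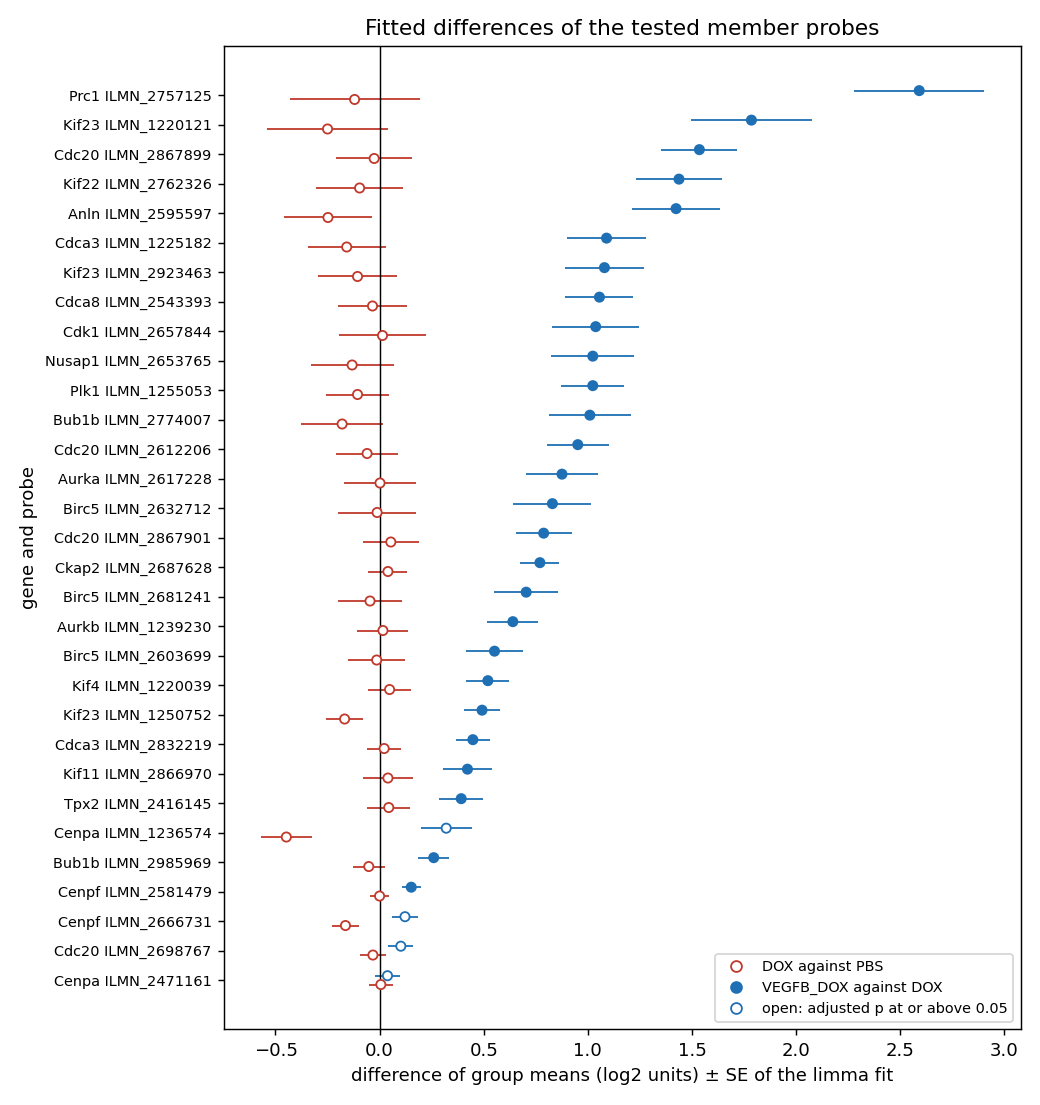
For each of the 31 tested probes the plot gives the difference of group means in log2 units ± SE of the limma fit, red for DOX against PBS and blue for VEGFB_DOX against DOX, filled where the adjusted p was under 0.05. All 31 blue points lie to the right of 0 and 27 are filled, while the red points lie between -0.45 and 0.05 and none is filled. Of the 31 probes, 10 passed the filter only through the VEGFB_DOX arrays, so they had to be high there. Over all tested probes 42.5% of the differences against DOX were positive and 6.64% were called higher.

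Doxorubicin alone, in DOX against PBS, left 0 of the 31 tested probes past the threshold (limma), where 0.232% of all tested probes were called higher and 0.0995% lower. Of the 31, 2 had an unadjusted p under 0.05, as did 10.4% of all tested probes. The differences ran from -0.45 to 0.05 with a median of -0.03, and 20 were negative and 10 positive, whereas the median over all tested probes was 0.00. For the 20 genes the SE of a difference lay between 0.06 and 0.31, and the count of 0 does not show that the groups were alike. In PBS 10 of the 31 probes averaged below the background limit, so a further loss of signal was not detectable there. The largest difference was that of the bright Cenpa probe.

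The 5 VEGFB_DOX hearts differed widely among themselves, and in nearly the same order from gene to gene. Among the 18 genes that rose against DOX, VEGFB_DOX 3 had the highest reading in 15, VEGFB_DOX 2 in 2 (Aurka and Ckap2) and VEGFB_DOX 5 in 1 (Kif23). VEGFB_DOX 1 had the lowest reading in 16. The complete order 3, 2, 4, 5, 1 held for 14 of the 18. The SD of these genes had a median of 0.550 in VEGFB_DOX, against 0.106 in PBS and 0.127 in DOX. Of the 18, 6 passed the filter only through the VEGFB_DOX arrays. Readings near background in PBS and DOX understate the spread between hearts, so the SDs of the groups are not strictly comparable. Averaged over the 20 genes with a tested probe and set against the PBS mean, VEGFB_DOX arrays 1 to 5 stood at 0.37, 1.09, 1.48, 0.81 and 0.49, the DOX arrays at -0.12, 0.12, -0.18, -0.11 and -0.13, and the PBS arrays between -0.08 and 0.08. DOX 2, the DOX array with the highest mean, had the highest DOX reading in 14 of the 18 genes. The probes were read on the same arrays, so agreement between genes is not independent evidence. Without DOX 2 and VEGFB_DOX 3 together, 25 of the 31 probes still rose against DOX, where 6.21% of all tested probes did, and 25 against PBS, where 7.00% did. The 31 again include the 10 probes that passed the filter only through the VEGFB_DOX arrays.

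In DOX and in VEGFB_DOX, though not in PBS, the array with the highest mean of the mitosis genes had the lowest Cdkn1a reading of its group. Cdkn1a encodes the CDK inhibitor p21, a target of p53 that is induced by DNA damage, and its brightest probe read 8.97, 8.20, 8.73, 8.73 and 7.97 in PBS, 10.99, 9.87, 10.99, 10.67 and 10.48 in DOX, and 10.89, 10.27, 8.60, 10.05 and 10.67 in VEGFB_DOX. Within DOX the lowest reading was that of DOX 2, and within VEGFB_DOX that of VEGFB_DOX 3, which lay inside the PBS range. Within PBS, PBS 3 had the highest mean of the mitosis genes and PBS 5 the lowest Cdkn1a reading. Cdkn1a rose by 2.08 ± 0.33 in DOX against PBS (limma, adjusted p = 0.0110) and 1.58 ± 0.33 in VEGFB_DOX against PBS (adjusted p = 0.00369), while VEGFB_DOX and DOX differed by -0.50 ± 0.33 (adjusted p = 0.405). With 5 arrays per group no correlation was computed, and the part of Cdkn1a in the differences between arrays was not tested.

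**Figure D4:**
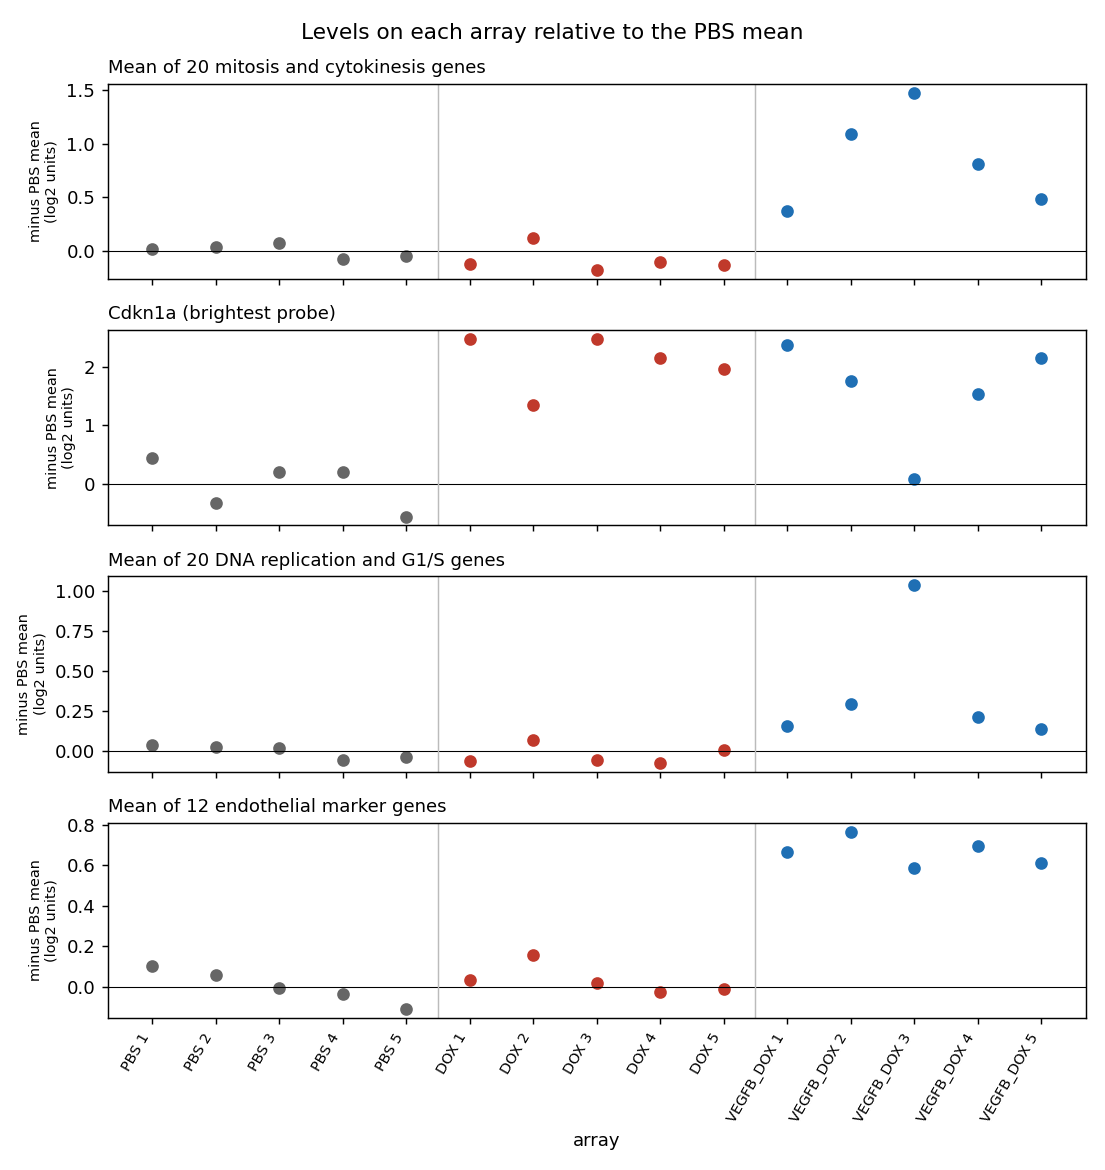
The panels give, for each array, the value minus the PBS mean (log2 units) of the mean of the 20 mitosis and cytokinesis genes, of Cdkn1a, of the mean of 20 DNA replication and G1/S genes, and of the mean of 12 endothelial markers. VEGFB_DOX 3 is highest for the mitosis and the replication genes and lowest of its group for Cdkn1a. For the endothelial markers the 5 VEGFB_DOX arrays lie close together, at 0.59 to 0.77.

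Other mitosis genes were read from a fixed list of 70 outside the set. Of the 66 with a probe, 49 had a tested one, and 21 of these rose and 0 fell against DOX (6.64% and 3.32% of all tested probes), with a median difference of 0.19 (all tested probes, -0.02). Of the 49, 16 passed the filter only through the VEGFB_DOX arrays, 11 of which rose, and of the 33 others 10 rose. The genes named below were picked by smallest p, whichever way they passed the filter. Some may have had to be high in VEGFB_DOX, so their values are a description. Against PBS 22 rose and 0 fell (6.97% and 4.92% of all tested probes). In DOX against PBS 0 were called, with 3 at an unadjusted p under 0.05, against 10.4% of all tested probes. Kif2c, the kinesin that dismantles microtubules at wrong attachments, rose by 0.68 ± 0.08 against DOX (limma, adjusted p = 3.09e-05). Spag5, the spindle protein astrin, rose by 1.28 ± 0.18 (adjusted p = 0.000115), and Troap, a microtubule-associated protein named also tastin, by 0.89 ± 0.13 (adjusted p = 0.000150). Pimreg and Haspin, the latter a histone H3 kinase of mitosis, rose by 0.29 ± 0.04 and 0.33 ± 0.06. Gtse1, a p53-regulated microtubule protein, rose by 0.68 ± 0.11 against DOX and by 1.12 ± 0.11 against PBS, and unlike most genes here was also the higher in DOX than in PBS by 0.44 ± 0.11, which did not pass the threshold (adjusted p = 0.109).

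Of 20 tested genes for the transcription of cell cycle genes, 3 rose and 1 fell against DOX, where 6.64% and 3.32% of all tested probes did. Of the 20, 3 passed the filter only through the VEGFB_DOX arrays, 1 of which rose, and of the 17 others 2 rose. Counts this small were not read as a result about the list. The genes that rose are named whichever way they passed the filter, so their values are a description. Mybl2, which encodes the B-MYB subunit that joins MuvB in G2, rose by 0.58 ± 0.14 (limma, adjusted p = 0.0111), Rbl1, the pocket protein p107, by 0.43 ± 0.11 (adjusted p = 0.0177), and E2f1 by 0.68 ± 0.21 (adjusted p = 0.0469). E2f6, a repressor of the family, fell by 0.27 ± 0.06 (adjusted p = 0.00593). Foxm1 read 7.05 ± 0.15 in DOX and 7.34 ± 0.39 in VEGFB_DOX, a difference of 0.29 ± 0.13 (adjusted p = 0.200). Of 20 tested genes of DNA replication and the G1/S step, 7 rose and 0 fell against DOX and 4 rose against PBS (6.64% and 6.97% of all tested probes rose), with medians of 0.30 and 0.34. Ccnd1, the G1 cyclin D1, rose by 1.13 ± 0.18 against DOX (adjusted p = 0.000299). Mcm6 and Mcm5, subunits of the replicative helicase, rose by 0.71 ± 0.19 and 0.95 ± 0.27, Uhrf1, which guides maintenance methylation of DNA, by 1.03 ± 0.29, Tyms, the thymidylate synthase, by 0.53 ± 0.14, and Rrm1, a subunit of ribonucleotide reductase, by 0.40 ± 0.12. On VEGFB_DOX arrays 1 to 5 the mean of these 20 genes stood 0.16, 0.30, 1.04, 0.21 and 0.14 above the PBS mean. The PBS arrays lay between -0.05 and 0.04 and the DOX arrays between -0.07 and 0.07, so all 5 VEGFB_DOX arrays were above every other array, with VEGFB_DOX 3 the highest.

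Markers of the cell types in the tissue were read beside these results, and their part in them was not tested. Endothelial markers rose in 9 of 12 cases against DOX and in 10 of 12 against PBS, where 6.64% and 6.97% of all tested probes did. Their mean relative to PBS lay between -0.11 and 0.10 in PBS, -0.03 and 0.16 in DOX, and 0.59 and 0.77 in VEGFB_DOX. The brightest of them, Egfl7 and Esam, rose by 0.81 ± 0.09 and 0.90 ± 0.07 against DOX (limma, adjusted p = 1.43e-05 and 3.72e-07). On VEGFB_DOX arrays 1 to 5 the endothelial mean stood at 0.67, 0.77, 0.59, 0.69 and 0.61. In mitosis genes arrays 3 and 2 were high and arrays 1 and 5 low. The endothelial values lay too close together for their order to be compared with that one. Pericyte and smooth muscle markers rose in 4 of 8 cases against DOX and in 2 against PBS, where 1 fell (4.92% of all tested probes fell). In DOX against PBS all 8 differences were negative and 1 was called lower, as were 0.0995% of all tested probes. The mean of these 8 lay between -0.34 and 0.03 in DOX and between 0.11 and 0.21 in VEGFB_DOX. Acta2 and Abcc9, the brightest of that list, differed by 0.24 ± 0.15 (adjusted p = 0.409) and 0.06 ± 0.08 (adjusted p = 0.717).

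Of the other marker lists, against DOX, 1 of 6 fibroblast markers rose (6.64% of all tested probes did). Their mean lay between -0.04 and 0.27 in VEGFB_DOX and -0.26 and 0.02 in DOX. The brightest, Dcn and Lum, differed by 0.09 ± 0.06 (limma, adjusted p = 0.469) and 0.35 ± 0.12 (adjusted p = 0.0830). Of 6 tested macrophage markers 0 were called against DOX with a median difference of 0.28. All 6 were positive and 4 had an unadjusted p under 0.05 (22.3% of all tested probes did). Against PBS 2 rose, as did 6.97% of all tested probes. The mean of these 6 lay between 0.07 and 0.31 in DOX and between 0.16 and 0.68 in VEGFB_DOX, and C1qb and C1qc, the brightest, differed from DOX by 0.29 ± 0.13 (adjusted p = 0.192) and 0.27 ± 0.13 (adjusted p = 0.204). Among lymphocyte markers 2 of 6 had a tested probe, Cd79b at 7.20 ± 0.04 (SD, n = 5) and Cd3d at 6.94 ± 0.06 in PBS, and the others were not above the background filter. Of 5 tested neutrophil genes 2 rose in DOX against PBS, as did 0.232% of all tested probes. They were S100a9, by 1.34 ± 0.19 (limma, adjusted p = 0.00949), and S100a8, by 1.18 ± 0.18 (adjusted p = 0.0105). In VEGFB_DOX 2 of the 5 rose against PBS (6.97% of all tested probes did). Against DOX 0 were called, and 4 of the 5 differences were negative. The list mean lay between 0.34 and 0.83 in DOX and 0.25 and 0.69 in VEGFB_DOX, and Mpo and Elane stayed near background in all groups. Red cell precursor markers were called in 0 of 3 cases in every comparison, with Alas2 at 8.95 ± 0.30 in PBS and 8.13 ± 0.67 in VEGFB_DOX. Atrial markers were called in 0 of 2 cases in every comparison, and Nppa and Myl4 differed from DOX by -0.51 ± 0.17 (adjusted p = 0.0714) and 0.04 ± 0.09. The 7 cardiomyocyte markers were called in 0 cases in every comparison, with means between -0.21 and 0.22 on all 15 arrays. Of all tested probes, 0.232% were higher and 0.0995% lower in DOX against PBS. The shares were 6.64% and 3.32% in VEGFB_DOX against DOX, and 6.97% and 4.92% against PBS. Lists this small can hold 0 calls at such shares, so these counts do not show that the cell types were unchanged.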

How the data were processed

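Total RNA of mouse myocardium was hybridised to Illumina BeadChip arrays, 1 array per sample. The deposited values of the authors are on a log2 scale and quantile-normalized between arrays. Both were read from the values, which run from 6.52 to 14.93 with sorted arrays differing by at most 0.01, and the software is not given in the sources used here. The raw signal table was not used here, because none of its 15 sample columns bears the name of a labelled sample. Per the labels' protocols, RNA was purified with TRIsure and NucleoSpin RNA II and labelled with an Ambion kit.

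Background was set at the mode of all values (6.80), with an SD of 0.0730 from the values below it and a 95% limit of 6.92. A linear model with 1 mean per group was fitted to the 24128 probes above that limit on at least 5 of 15 arrays using limma 3.58.1 (R 4.3.3), a variance trend and 12 residual degrees of freedom. Adjustment followed Benjamini and Hochberg over all tested probes, with a threshold of 0.05. Precision is limited by the number of arrays, with a median SE of a difference of 0.07. The labels number 5 samples per group. Were some taken from the same animal, p-values would reflect only sample-to-sample spread. A probe above background on no array of a group is given as a bound, from the mean of the brighter group over the lowest signal above background (6.93).

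Of 45281 probes, 34885 carry 1 gene symbol on the platform annotation, 18 several and 10378 none, and 34807 gene identifiers matched the mouse gene table with 0 symbols changed. Readings on every array are given for the 12 genes with the largest absolute difference in VEGFB_DOX against DOX, and from other lists up to 6 called genes of smallest p, or the 2 brightest markers. Values of Kif23 ILMN_1220121, Cenpa, Foxm1 and of the dimmer probes were named after they were seen. The 34 genes, the other lists and the tests were chosen with earlier results of these data known. Promoter windows came from RefSeq (GRCm38.p6), with the first entry taken for 4163 symbols that have several. The procedure was tested on simulated data, and alternatives covered the filter, variance prior, array weights, samples in the fit, replicate block, centring and arrays left out. Python 3.11.15 with matplotlib 3.10.9 drew the figures.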

Additional observations from a re-analysis of the deposited data

Results flagged for a closer look

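In 7 of 93 sets of 5 readings, 1 array lay far from the others of its group by Dixon's criterion (gap over range above 0.710), where chance gives about 1 in 20. In 6 of the 7 that array was DOX 2, with the high reading. It read 8.37 for Prc1, against 7.13 to 7.48 on the other DOX arrays. For Kif23 it read 7.97 on ILMN_1220121, against 7.06 to 7.32, and 7.26 on ILMN_2923463, against 6.91 to 6.99. Nusap1 stood at 7.31 there, against 6.83 to 6.95, and Tpx2 at 7.08, against 6.70 to 6.79. The Cdc20 probe ILMN_2867901 stood at 7.15, against 6.96 to 7.01. The probes share that array, so these 6 readings are not independent. The remaining one was PBS 2 on the Bub1b probe ILMN_2985969, at 7.25 against 6.95 to 7.03.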

How the results depend on the processing

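None of the 31 tested member probes changed direction in VEGFB_DOX against DOX under any alternative. For the 10 that passed the filter only through the VEGFB_DOX arrays this was partly set by the filter. Differences near 0, none of them called, changed sign for 2 of the 31 probes in VEGFB_DOX against PBS and for 13 of the 31 in DOX against PBS. Without PBS 4, PBS 5, DOX 5 and VEGFB_DOX 5, Cenpa ILMN_1236574 and Cenpf ILMN_2666731 stood at 0.0233 and 0.0525 against PBS, and in DOX against PBS Aurkb stood at -0.0283, Cdca3 ILMN_2832219 at -0.0125, Cenpa ILMN_2471161 at -0.0200 and Kif4 at -0.0150. Without DOX 2 and VEGFB_DOX 3, Aurka stood at -0.0605, Aurkb at -0.0010, Cdca3 ILMN_2832219 at -0.0070, Cdk1 at -0.0380 and Tpx2 at -0.0225 in DOX against PBS. With array weights Aurka stood at -0.0106, Birc5 ILMN_2632712 at 0.00154 and Cenpa ILMN_2471161 at -0.00301. Leaving out 1 array at a time in DOX against PBS gave -0.0605 to 0.0345 for Aurka, -0.0205 to 0.0445 for Aurkb, -0.0650 to 0.0360 for Birc5 ILMN_2603699, -0.0480 to 0.0285 for Birc5 ILMN_2632712, -0.0750 to 0.00050 for Bub1b ILMN_2985969, -0.0625 to 0.0275 for Cdc20 ILMN_2698767, -0.0860 to 0.0090 for Cdc20 ILMN_2867899, -0.0070 to 0.0490 for Cdca3 ILMN_2832219, -0.0825 to 0.0160 for Cdca8, -0.0380 to 0.0420 for Cdk1, -0.0310 to 0.0565 for Cenpa ILMN_2471161 and -0.0225 to 0.0725 for Tpx2. Counts of member probes called in VEGFB_DOX against DOX (27) and against PBS (26) moved past 1.5 times only when probes had to be above background on all 15 arrays, where 11 were tested and 8 were called higher in each. In that setting 1536 of all 15917 tested probes were called higher against DOX and 1573 against PBS. In DOX against PBS 1 member probe (Cenpa, lower) was called without DOX 2 and VEGFB_DOX 3, where 1.33% of all tested probes were called lower. Leaving out 1 array at a time gave 0 to 0 calls in DOX against PBS, 23 to 27 in VEGFB_DOX against DOX and 24 to 27 in VEGFB_DOX against PBS. Over all tested probes, array weights gave 207 calls in DOX against PBS (80 in the fit reported) and 3668 in VEGFB_DOX against DOX (2405 reported). DOX against PBS gave 684 without DOX 2 and VEGFB_DOX 3, and 1 without PBS 4, PBS 5, DOX 5 and VEGFB_DOX 5, a choice made after the data were seen. Leave-one-out counts were 1 to 498 for DOX against PBS (lowest without DOX 1, highest without DOX 2), 1637 to 2620 for VEGFB_DOX against DOX and 2046 to 2990 for VEGFB_DOX against PBS. The cause of these shifts was not tested. Whether array numbers pair the samples was not settled by the values. Deviations of same-numbered arrays correlated at -0.41 to 0.63 over 15 pairs, with a median of 0.10 and 7 above 0.1. Other pairs, 60 in all, correlated at -0.49 to 0.53, with a median of -0.06 and 15 above 0.1. With the replicate number as a block, 0, 26 and 26 member probes and 81, 2621 and 3172 of all probes were called in DOX against PBS, VEGFB_DOX against DOX and VEGFB_DOX against PBS. Normalization of the raw signals with neqc was not run, since their columns match no label. Signal over background limits the 32 member probes that were not tested.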
